A study of Mus musculus with 16 samples.

Results

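Peritoneal macrophages of B10.Q/J mice taken at 5 h after an injection of IFNa were compared with the same cells taken at 2 h. The members are the 4 arrays whose titles name these cells, IFNa and the time, 2 at 5 h and 2 at 2 h, of 16 arrays in the series. The series asks how expression of interferon-stimulated genes depends on the receptor chain IFNAR1 and on the kinase TYK2. All mice were male. The B10.Q/J mice were 7 weeks old and had received 10000 units of IFNa, or vehicle, under the skin. Cells were sorted on a FACSAria from the peritoneal cavity as ICAM2+ cells that also carried the macrophage surface protein encoded by Adgre1, and their RNA was hybridised to Affymetrix Mouse Gene 1.0 ST arrays.

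The groups used here were, in B10.Q/J macrophages, IFNa at 5 h (2 arrays), IFNa at 2 h (2 arrays), vehicle at 5 h (1 array) and vehicle at 2 h (1 array). CD4+ T cells sorted from the spleen (TCRB+ CD4+ CD8-) had the same 4 groups with the same numbers of arrays. Macrophages of 6-week-old B6.129S2-Ifnar1tm1Agt/Mmjax mice, which lack the receptor chain (KO), lent their spread to the test: 2 arrays at 2 h after IFNa and 2 whose titles name no IFNa, although their preparation note does. B10.Q/J is known for a natural mutation in Tyk2 that all 6 B10.Q macrophage arrays share, and no array of a strain with intact Tyk2 was used. The titles of 5 of these 6 arrays bear a spleen code although the cells are listed as peritoneal. The sixth, array 1 of IFNa 2 h, bears the peritoneal code, and 1 T-cell vehicle title bears a B-cell code. Nothing states that arrays of a group came from separate mice, so p-values measure the spread between arrays, which may be technical.

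IFNa binds a receptor of paired chains whose kinases JAK1 and TYK2 pass on a signal that switches on interferon-stimulated genes through a DNA element called ISRE. Early genes include chemokines and antiviral proteins, and feedback proteins such as USP18 and SOCS1 later damp the signal. Macrophages also have a circadian clock, a loop in which BMAL1 (gene Arntl) and CLOCK switch on Per, Cry, Nr1d1, Nr1d2 and Dbp, while the products of Nr1d1 and Nr1d2 repress Arntl. Mice killed at different hours can therefore differ without any IFNa, and differences below stand beside those of the vehicle arrays.

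The peritoneal macrophage markers and the T and NK cell markers matched the sort. All 19 peritoneal macrophage markers on the array lay above the array's median in each IFNa array, with a mean log2 intensity of 12.01 and 12.09 at 5 h and 11.99 and 12.05 at 2 h. Of 11 T and NK cell markers, 0 lay above the median in any of the 4 arrays. B-cell markers averaged 6.91 in both 5 h arrays, against 7.03 and 7.06 at 2 h, and monocyte-derived macrophage markers 7.07 and 7.11 at 5 h, against 7.14 and 7.30 at 2 h. Above the median in these arrays lay 2 of 9 B-cell markers and 2 to 3 of 6 monocyte-derived macrophage markers. Of 12 mesothelial and stromal cell markers, 3 did. The arrays of a pair correlated at 0.991 at 5 h and 0.984 at 2 h across genes. Array 1 of IFNa 2 h stood apart in its spread: its upper quartile was 6.06 times its lower, against 7.14 to 7.52 in the other 5 B10.Q macrophage arrays, and KO IFNa array 1 was at 5.49.

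Levels are log2 of the deposited intensities, and a difference of 1 is a doubling. A gene was called when limma's Benjamini-Hochberg adjusted p was under 0.05 over 10531 genes tested. Between IFNa 5 h and IFNa 2 h, 1 gene was called higher (0.0095% of genes) and 0 lower (0%), with 278 higher (2.64%) and 85 lower (0.807%) by unadjusted p below 0.05. That split was 161 higher and 154 lower after quantile normalization, and 292 and 59 after subtracting each array's median. The test takes its spread from all 10 macrophage arrays. When the spread came from the 6 B10.Q macrophage arrays alone, 23 genes were called higher (0.226%) and 16 lower (0.157%) of 10199. Without KO IFNa array 1 the counts were 19 and 13, and all 32 of these genes were among those 39. Below, "B10.Q fit" names the fit of the 6 arrays, which had 2 residual degrees of freedom. With so few, its p-values also draw on the spread of other genes. An SE printed beside a p of the B10.Q fit is that of the test over 10 arrays.

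The clearest difference was Pde7b, whose product hydrolyses cyclic AMP. Its log2 level was 9.80 and 9.79 in the IFNa 5 h arrays, 7.75 and 7.56 in the IFNa 2 h arrays, 7.44 in the vehicle 5 h array and 7.43 in the vehicle 2 h array. Only the IFNa 5 h arrays were high: the 4 KO macrophage arrays read 7.26 to 7.88. The rise between the times was 2.14 ± 0.13 (SE, n = 2 each), a 4.42-fold difference, with a 95% interval of 1.84 to 2.44 and a limma adjusted p of 0.000481. Vehicle differed by 0.01. The difference of the time differences, IFNa minus vehicle, was 2.13 ± 0.23 with an adjusted p of 0.0624, and an adjusted p of 0.000598 in the B10.Q fit, where it was the sole gene called for it. In T cells Pde7b lay between 5.76 and 6.39 in all 6 arrays and below the array medians.

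The promoter of Pde7b is printed because the gene stood apart from the interferon-stimulated genes in time. The 300 bases end 50 bases past the RefSeq start site (GRCm38.p6, chr10:20548279-20548578, minus strand, written 5′ to 3′). None of 7 motifs was found in it on either strand: ISRE (TTTC, any 2 bases, TTTC), GAS TTCNNNGAA, the cyclic AMP element TGACGTCA, the clock elements E-box CACGTG, E-prime box CACGTT and D-box TTANGTAA, and the RORE core AGGTCA. These letters occurred in 3.49%, 8.47%, 1.88%, 7.24%, 4.77%, 2.34% and 16.04% of 27025 RefSeq promoters of this length, in the same order.
Pde7b: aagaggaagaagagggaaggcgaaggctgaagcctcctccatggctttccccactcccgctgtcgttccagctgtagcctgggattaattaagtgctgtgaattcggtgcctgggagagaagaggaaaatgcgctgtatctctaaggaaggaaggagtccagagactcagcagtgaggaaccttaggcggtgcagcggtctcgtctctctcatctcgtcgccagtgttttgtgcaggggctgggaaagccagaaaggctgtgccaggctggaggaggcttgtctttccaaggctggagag
Of 23 tested genes of the cyclic AMP list, Pde7b was the only one called and the only one by unadjusted p below 0.05. Over all genes, 2.64% were higher and 0.807% lower by unadjusted p below 0.05. The list's median difference was -0.04, against 0.06 for all genes. Pde7a, its closest relative, read 8.44 and 8.67 at IFNa 5 h, against 9.12 and 8.69 at IFNa 2 h. Among the other phosphodiesterases, Pde10a differed by -0.30 ± 0.18 and Pde1b by 0.27 ± 0.13, with vehicle at 0.12 and -0.05. Both IFNa 5 h arrays of Pde1b lay above both IFNa 2 h arrays. Pde4b, Pde4d, Pde8a and Pde3b differed by -0.04, 0.14, 0.11 and -0.07.

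**Figure D1:**
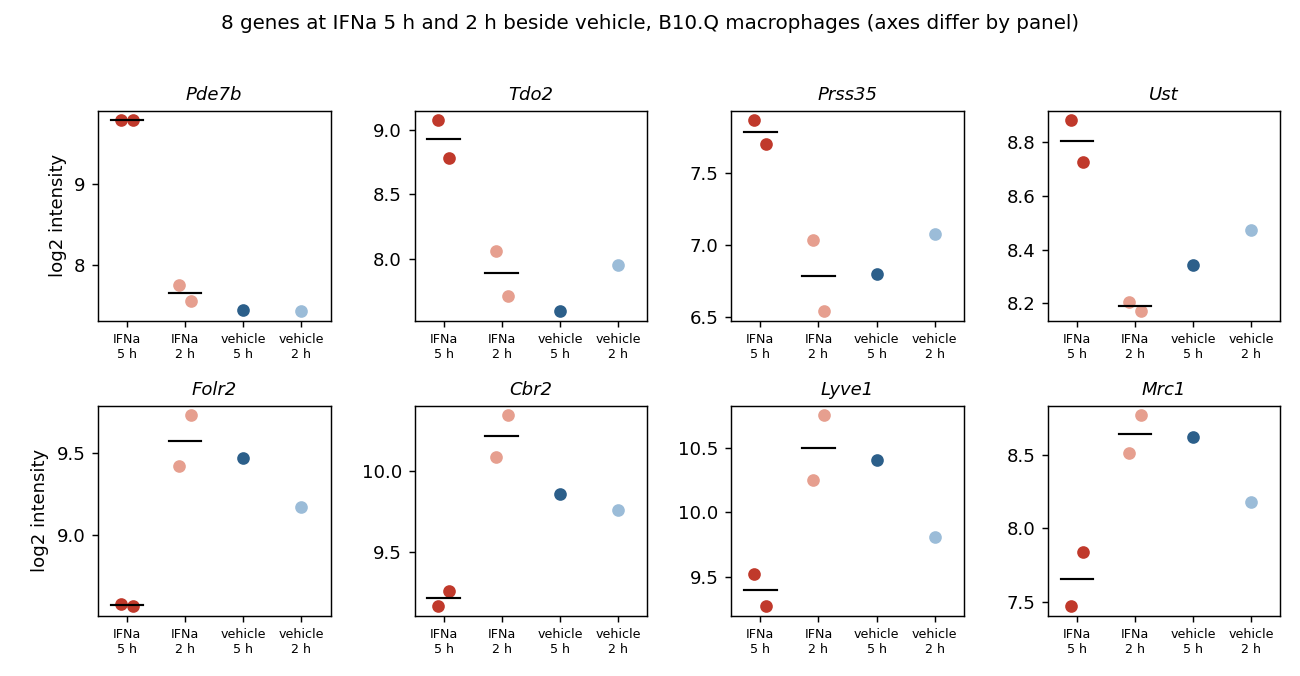
Log2 intensity of 8 genes in B10.Q macrophages (y axis, its range set per panel) at IFNa 5 h, IFNa 2 h, vehicle 5 h and vehicle 2 h (x axis). Dots are arrays and lines are means of 2 arrays; in the top row the IFNa 5 h arrays lie above all others and in the bottom row below all others.

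Of all genes, 29.7% had both IFNa 5 h arrays above both IFNa 2 h arrays and 12.1% had both below, so that such a split alone is common. The 15 genes named as higher at 5 h comprise Pde7b and the 14 of smallest p among genes split in this way; the 14 had adjusted p from 0.0633 to 0.842. Of the 15, 7 had a vehicle difference under 20% of their own or of opposite sign: Pde7b, Tdo2, Prss35, Ust, Tex30, St7 and Cnr2. In 6 it reached 50% or more: Nr1d1, Nr1d2, Dbp, Per3, Epha2 and Hes1. The share of all genes with such vehicle differences was not computed, so nothing is read from these 2 counts. Over all 10531 genes the IFNa and vehicle differences were barely related (Pearson's r of 0.024). The other two were Slc7a5, an amino acid transporter subunit that differed by 0.65 ± 0.13 with IFNa and 0.28 with vehicle, and Ablim1, an actin-binding protein, by 0.78 with IFNa and 0.25 with vehicle.

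Tdo2, which encodes the tryptophan dioxygenase that starts the kynurenine pathway, read 9.08 and 8.78 at IFNa 5 h, 8.06 and 7.71 at IFNa 2 h, 7.59 with vehicle at 5 h and 7.95 with vehicle at 2 h. Its difference was 1.04 ± 0.16 (adjusted p = 0.218; 0.00443 in the B10.Q fit), while vehicle differed by -0.36. Both IFNa 5 h arrays lay above the other 4. Prss35, a secreted serine protease family member, read 7.86 and 7.70 at IFNa 5 h, 7.03 and 6.54 at IFNa 2 h, 6.80 with vehicle at 5 h and 7.07 with vehicle at 2 h. Its difference was 0.99 ± 0.18 (adjusted p = 0.451; 0.0091 in the B10.Q fit). Ust, a sulfotransferase that modifies chondroitin and dermatan sulfate, was 0.62 ± 0.12 higher at IFNa 5 h than at IFNa 2 h, with a vehicle difference of -0.13. Cnr2, a cannabinoid receptor of immune cells, was 0.55 ± 0.13 higher, St7 0.56 ± 0.13 and Tex30 0.60 ± 0.13, none called in the test over 10 arrays. Cnr2 read 7.65 and 7.71 at IFNa 5 h, 7.12 and 7.14 at IFNa 2 h and 7.56 with vehicle at either time. Tex30 read 8.05 and 7.95 at IFNa 5 h and 7.28 and 7.51 at IFNa 2 h. With vehicle Tex30 read 7.77 at 5 h and 8.01 at 2 h. In Ust, Cnr2, St7 and Tex30 the IFNa 2 h arrays lay below both vehicle arrays.

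For the difference of the time differences, 0 genes were called in either direction (0%), with 84 higher (0.798%) and 43 lower (0.408%) by unadjusted p below 0.05. The 6 genes of smallest p were Pde7b, Folr2, Tdo2, Prss35, Kcnn3 and Gfpt2. Kcnn3, a calcium-activated potassium channel, read 10.13 and 10.29 at IFNa 5 h, 9.70 and 9.84 at IFNa 2 h, 9.65 with vehicle at 5 h and 10.28 with vehicle at 2 h. Its IFNa arrays were thus higher at 5 h and its vehicle array lower, and the difference of differences was 1.07 ± 0.25. Gfpt2, an enzyme of hexosamine synthesis, had a difference of differences of 0.88 ± 0.23.

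The B10.Q fit called 17 genes outside the 30 named by rule, which are named here because of that call. Dnah12, a dynein heavy chain, read 8.54 and 8.30 at IFNa 5 h, 7.62 and 6.70 at IFNa 2 h, 7.14 with vehicle at 5 h and 7.11 with vehicle at 2 h. Rab33a, a small GTPase, read 8.08 and 8.02 at IFNa 5 h, 7.26 and 7.02 at IFNa 2 h, 7.04 with vehicle at 5 h and 7.12 with vehicle at 2 h. With vehicle the times differed by 0.03 in Dnah12 and by -0.08 in Rab33a. Others called higher were Abca6, Vcan, Camk2d, Snord16a, Cpne8, Plk3, Slc27a1, Map3k6 and Trmt61a, by 0.62 to 0.80. Those called lower were Thbd, the anticoagulant receptor thrombomodulin, Mmp9, a gelatinase, Ltc4s, the leukotriene C4 synthase, AY036118, Igfbp4 and Lonrf3, by 0.62 to 0.69. Some of these moved the same way with vehicle: Slc27a1 by 0.45, Vcan by 0.33, Plk3 by 0.27, Thbd by -0.325 and Lonrf3 by -0.28. Of all 23 genes called higher, the vehicle difference reached 50% or more in 7. In 12 it was under 20% or of opposite sign. Of the 16 called lower, these counts were 2 and 11. Shares over all genes were not computed for these counts either, and nothing is read from them.

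Of the 15 genes named as lower at IFNa 5 h, the 5 with the largest differences were Lyve1, Mx2, Folr2, Cbr2 and Mrc1. None was called in the test over 10 arrays, and all 5 were called in the B10.Q fit. Folr2, the folate receptor beta, read 8.57 and 8.56 at IFNa 5 h, 9.42 and 9.73 at IFNa 2 h, 9.47 with vehicle at 5 h and 9.17 with vehicle at 2 h. Its difference was -1.01 ± 0.14 (adjusted p = 0.147; 0.00258 in the B10.Q fit), against a vehicle difference of 0.30. The IFNa 5 h arrays lay below all others. Lyve1, a hyaluronan receptor, read 9.52 and 9.27 at IFNa 5 h, 10.25 and 10.75 at IFNa 2 h, 10.41 with vehicle at 5 h and 9.81 with vehicle at 2 h. Its difference was -1.11 ± 0.31 (adjusted p = 0.993; 0.00472 in the B10.Q fit). With vehicle the later array was the higher one, by 0.61.

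Cbr2, a carbonyl reductase, read 9.16 and 9.26 at IFNa 5 h, 10.08 and 10.34 at IFNa 2 h, 9.86 with vehicle at 5 h and 9.76 with vehicle at 2 h, a difference of -1.001 ± 0.19 with IFNa (adjusted p = 0.574; 0.00258 in the B10.Q fit). Mrc1, the macrophage mannose receptor, read 7.47 and 7.84 at IFNa 5 h, 8.52 and 8.77 at IFNa 2 h, 8.62 with vehicle at 5 h and 8.18 with vehicle at 2 h, a difference of -0.99 ± 0.30 (adjusted p = 0.993; 0.00591 in the B10.Q fit). For both genes the IFNa 5 h arrays were again the lowest of the 6. In bulk RNA, fewer cells of one kind and less RNA per cell cannot be told apart. The monocyte-derived and B-cell markers given above were also slightly lower at 5 h, and their part in these differences was not tested. Among the peritoneal macrophage markers both directions were seen. Gata6, a transcription factor of these cells, read 11.85 and 11.71 at IFNa 5 h, against 11.31 and 11.44 at IFNa 2 h. Timd4, a receptor for phosphatidylserine, read 11.41 and 11.57 at IFNa 5 h, against 11.80 and 11.74 at IFNa 2 h.

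Axl, a receptor tyrosine kinase that binds dying cells through GAS6, read 8.64 and 8.64 at IFNa 5 h, 9.43 and 9.30 at IFNa 2 h, 9.14 with vehicle at 5 h and 8.79 with vehicle at 2 h (difference -0.73 ± 0.17). It had been higher than vehicle at 2 h and was lower than vehicle at 5 h. Arg1, the arginase, differed by -0.47 ± 0.13 and lay above both vehicle arrays at either time, at 10.37 and 10.57, against 10.85 and 11.02 at IFNa 2 h and 10.26 and 10.02 with vehicle at 5 h and 2 h. Of the 8 tested genes of the alternative activation list, 0 were called and 4 were lower by unadjusted p below 0.05, against 0.807% of all genes: Mrc1, Arg1, Retnla (-0.46 ± 0.15) and Egr2 (-0.42 ± 0.15). The list's median was -0.23 with IFNa, against 0.23 with vehicle. Clec10a, a lectin of the same list, was 0.53 ± 0.34 higher.

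The 15 genes named as lower comprise, besides Folr2, Lyve1, Cbr2, Mrc1, Axl and Arg1, the sialyltransferase gene St8sia6 (-0.64 ± 0.13), Dpysl3, Mx2, Arntl, Tppp3, Pitpnc1, Tagap, Stat4 and Sgms2. Their adjusted p ran from 0.147 to 0.993. In 9 the vehicle difference was under 20% of their own or of opposite sign, and in 4, Arntl, Tppp3, Tagap and Sgms2, it reached 50% or more. Nothing is read from these counts, as the share over all genes was not computed. Tppp3, a tubulin-binding protein, read 9.92 and 10.18 at IFNa 5 h, 10.81 and 10.95 at IFNa 2 h, 10.41 with vehicle at 5 h and 11.42 with vehicle at 2 h. Both treatments were thus lower at the later time.

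Clock genes differed between the times with IFNa and with vehicle alike. Nr1d1, the repressor REV-ERB alpha, read 11.16 and 10.98 at IFNa 5 h, 9.10 and 9.66 at IFNa 2 h, 11.07 with vehicle at 5 h and 9.64 with vehicle at 2 h. The IFNa difference was 1.69 ± 0.27 (adjusted p = 0.245; 0.000139 in the B10.Q fit) and the vehicle difference 1.43. All 3 arrays of 5 h lay above all 3 of 2 h. Its relative Nr1d2 read 9.65 and 9.63 at IFNa 5 h, 8.31 and 8.52 at IFNa 2 h, 9.53 with vehicle at 5 h and 8.60 with vehicle at 2 h. Dbp, a transcription factor that follows the clock, read 8.93 and 8.96 at IFNa 5 h, 7.75 and 7.88 at IFNa 2 h, 8.91 with vehicle at 5 h and 7.60 with vehicle at 2 h. In each gene the vehicle array fell in with the IFNa arrays of its own time.

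Per3, a period gene, read 8.14 and 8.42 at IFNa 5 h, 7.52 and 7.63 at IFNa 2 h, 8.27 with vehicle at 5 h and 7.65 with vehicle at 2 h. Tef, a relative of Dbp, was 0.60 ± 0.16 higher with IFNa and 0.60 with vehicle. Arntl, the activator of the loop, ran the other way, at 8.80 and 8.77 at IFNa 5 h, 9.50 and 9.43 at IFNa 2 h, 8.73 with vehicle at 5 h and 9.45 with vehicle at 2 h. Its difference was -0.68 ± 0.16 with IFNa and -0.72 with vehicle. Nfil3, a repressor of the genes that DBP activates, was likewise -0.50 ± 0.21 with IFNa and -0.53 with vehicle.

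Taking IFNa and vehicle arrays together, 3 of 10531 genes were called higher at 5 h (0.0285%) and 0 lower (0%). By unadjusted p below 0.05 there were 183 higher (1.74%) and 64 lower (0.608%). The 3 called genes were Pde7b (1.43 ± 0.11, adjusted p = 0.00284), Dbp (1.19 ± 0.11, adjusted p = 0.0111) and Nr1d2 (1.13 ± 0.12, adjusted p = 0.0179). Pde7b enters through the IFNa arrays alone, as its vehicle values show. With any 1 of the 4 IFNa arrays left out the count was 0 or 1, and in the B10.Q fit it was 15 higher and 5 lower. The 10 genes named as higher in this comparison are these, Nr1d1, Slc7a5, Epha2, Per3, Hes1, Hsd17b7, a cholesterol synthesis enzyme (0.49 ± 0.11), and Slc27a1, a fatty acid transporter (0.59 ± 0.13). Those named as lower add Etv1, Lonrf3, H2bc4 and Cited2, by 0.41 to 0.51. The 2 clock lists hold 28 genes, of which 24 are on the array and 21 passed the filter on low values. Of these 21, 9 had all 3 arrays of 5 h above all 3 of 2 h, against 9.48% of all genes, and 3 had them below, against 3.2%. At an unadjusted p under 0.05 with IFNa, 6 were higher and 3 lower, against 2.64% and 0.807% of all genes.

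Not every clock gene followed. Clock, Rora, Cry1 and the kinase genes Csnk1d and Csnk1e differed by 0.12 or less with IFNa. Per1 read 9.41 and 10.05 at IFNa 5 h, 9.59 and 8.49 at IFNa 2 h, 9.04 with vehicle at 5 h and 8.91 with vehicle at 2 h. Its arrays overlapped between the times.

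The promoters of 4 clock genes are shown for the elements their regulators bind (GRCm38.p6, the same window, 5′ to 3′). Capitals mark an E-prime box on the opposite strand in Nr1d1 (chr11:98775328-98775627, minus strand, starting 28 bases before the start site), the RORE core in Nr1d2 (chr14:18239057-18239356, minus strand), both D-boxes in Per3 (chr4:151044616-151044915, minus strand) and the E-box in Tef (chr15:81802423-81802722, plus strand).
Nr1d1: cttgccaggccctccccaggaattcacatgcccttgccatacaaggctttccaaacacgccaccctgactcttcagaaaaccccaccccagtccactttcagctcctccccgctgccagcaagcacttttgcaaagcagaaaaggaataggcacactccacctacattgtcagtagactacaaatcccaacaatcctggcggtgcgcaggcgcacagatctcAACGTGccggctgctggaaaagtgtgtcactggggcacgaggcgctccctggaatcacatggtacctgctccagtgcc
Nr1d2: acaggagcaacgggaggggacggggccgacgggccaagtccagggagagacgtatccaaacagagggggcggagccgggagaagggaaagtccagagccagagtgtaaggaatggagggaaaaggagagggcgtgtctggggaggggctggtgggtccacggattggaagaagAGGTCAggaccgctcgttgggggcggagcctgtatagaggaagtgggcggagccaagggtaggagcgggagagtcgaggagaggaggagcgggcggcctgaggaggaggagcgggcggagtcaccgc
Per3: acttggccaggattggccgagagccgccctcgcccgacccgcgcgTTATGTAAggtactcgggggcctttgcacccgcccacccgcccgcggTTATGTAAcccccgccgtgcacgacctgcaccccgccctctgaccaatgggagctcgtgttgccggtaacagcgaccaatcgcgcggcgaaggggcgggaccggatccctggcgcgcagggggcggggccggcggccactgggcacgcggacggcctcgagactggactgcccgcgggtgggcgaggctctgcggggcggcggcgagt
Tef: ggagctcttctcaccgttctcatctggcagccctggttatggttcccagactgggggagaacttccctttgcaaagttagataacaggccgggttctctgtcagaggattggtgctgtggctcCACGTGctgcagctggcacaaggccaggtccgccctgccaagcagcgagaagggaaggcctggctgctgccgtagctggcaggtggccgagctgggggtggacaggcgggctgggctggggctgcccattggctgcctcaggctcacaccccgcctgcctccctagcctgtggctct
Of the 21 clock genes 17 had a promoter in the table. At the first listed start site of each, an E-box was found in 5, an E-prime box in 3, a D-box in 2 and a RORE core in 4, and an ISRE in 0. These letters occurred in 7.24%, 4.77%, 2.34%, 16.04% and 3.49% of all promoters, in the same order. Dbp, whose promoter is not printed, held none of these clock elements. Arntl, also not printed, held none at the first of its 2 start sites and a RORE core at the other, which was not counted. A match describes these letters and does not show binding.

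**Figure D2:**
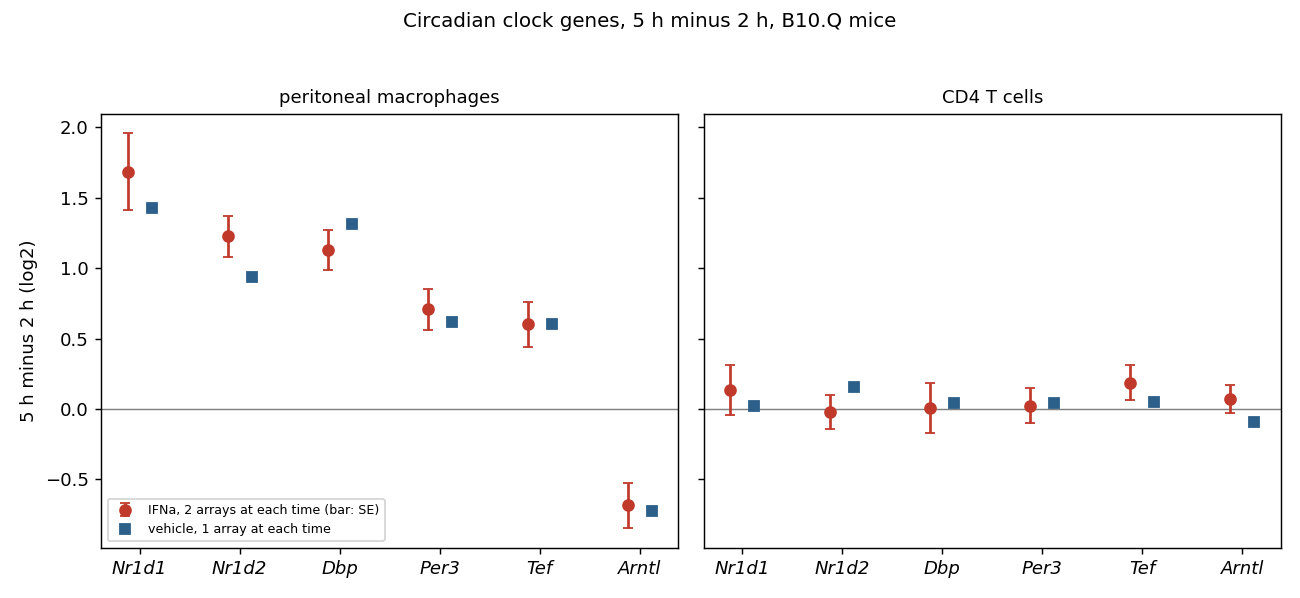
Difference between 5 h and 2 h (y axis, log2) of 6 clock genes (x axis) in B10.Q macrophages (left) and CD4 T cells (right). Circles are IFNa (2 arrays at each time, bar SE) and squares vehicle (1 array at each time); macrophage differences run from -0.72 to 1.69 and stand side by side for IFNa and vehicle, while those in T cells lie between -0.09 and 0.19.

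**Figure D3:**
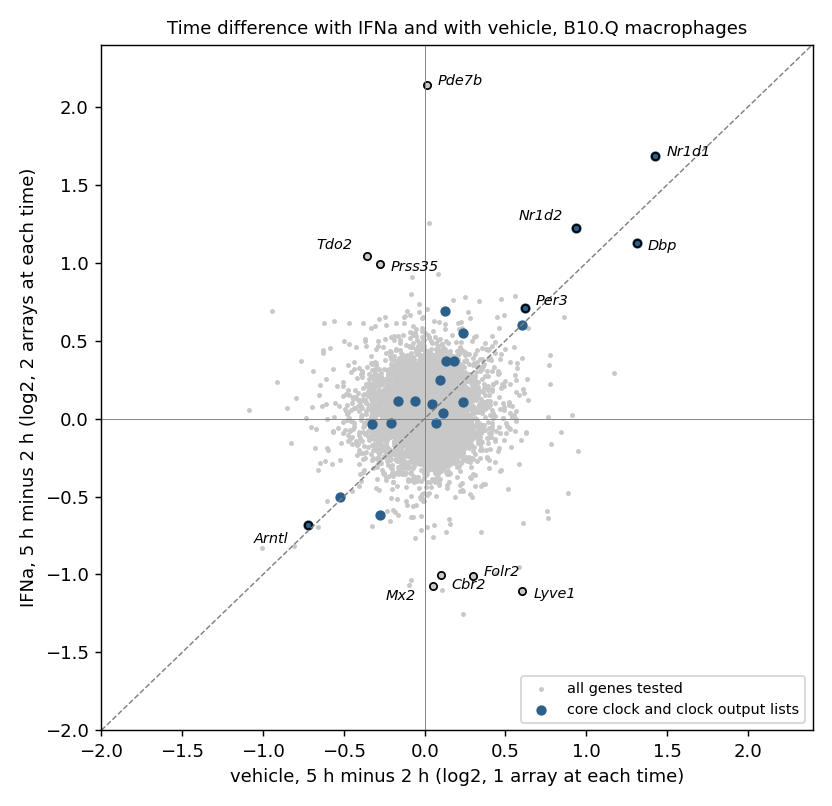
Each point is a gene: the difference between 5 h and 2 h with vehicle (x axis, log2, 1 array at each time) against that with IFNa (y axis, log2, 2 arrays at each time). Grey points are all 10531 genes tested, blue points the 21 clock genes, open circles the genes labelled, and the dashed line marks equal differences; Nr1d1, Nr1d2, Dbp, Per3 and Arntl lie near it, Pde7b, Tdo2, Prss35, Folr2, Cbr2, Lyve1 and Mx2 off it.

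Across all 10531 genes the IFNa and vehicle differences between the times were barely related, with Pearson's r of 0.024 and Spearman's rho of -0.010. The 2 share no array. Genes are not independent replicates, and no test was made of this value. With vehicle, 3 genes differed by more than 1 upward (0.0285%) and 2 downward (0.019%), and with IFNa 6 (0.057%) and 8 (0.076%).

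Interferon-stimulated genes differed between the times in both directions, with list medians near 0 when the 2 arrays of 2 h were averaged, and those 2 arrays disagreed. The 31 tested antiviral effectors had a median difference of 0.01, the 23 sensors of nucleic acid -0.01 and the 25 genes of the PARP, TRIM and Schlafen families -0.01, against 0.06 for all genes. In the 3 lists 39 of 79 genes lay above 0 and 40 below, from -1.07 to 0.93. None was called, and by unadjusted p below 0.05 there were 3 higher and 4 lower, against 2.64% and 0.807% of all genes. Relative to the vehicle array of the same time, the median antiviral effector was 1.56 above at 5 h and 1.46 above at 2 h. Relative to the mean of both vehicle arrays, the antiviral median was 1.39 and 1.54 in the IFNa 5 h arrays, against 1.90 and 0.98 in the IFNa 2 h arrays.

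In 71 of the 79 genes array 1 of IFNa 2 h was above array 2, against 30.8% of all genes. The median gap between these arrays was 0.48 for the 79 genes and -0.09 for all genes. Both IFNa 5 h arrays lay between the 2 arrays of IFNa 2 h in 41 of the 79, against 15.7% of all genes. Set against array 1 alone the median of the 79 genes at 5 h was -0.23, and against array 2 alone 0.23. A direction for the class between the times therefore rests on which 2 h array is used. Array 1 is also the array whose quartile ratio stands apart and the one B10.Q macrophage array titled with the peritoneal code, and the part of either in the gap was not tested.

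Single genes show it. Rsad2, which encodes viperin, read 9.54 and 9.73 at IFNa 5 h and 11.13 and 9.19 at IFNa 2 h. Ifi205, of the DNA-sensing family, read 9.36 and 9.42 at IFNa 5 h and 11.05 and 9.08 at IFNa 2 h. For both genes vehicle read 5.82 to 5.98 at either time, below every IFNa array.

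Other genes split without overlap. Mx1, the antiviral GTPase, read 10.47 and 10.80 at IFNa 5 h and 11.87 and 10.84 at IFNa 2 h. Its difference was -1.236 against array 1 of IFNa 2 h and -0.2 against array 2. Its relative Mx2 read 9.09 and 9.41 at IFNa 5 h and 10.76 and 9.88 at IFNa 2 h, a difference of -1.07 ± 0.25 (adjusted p = 0.842; 0.0431 in the B10.Q fit). Oas3, which makes the messenger that activates RNase L, read 9.60 and 9.70 at IFNa 5 h and 9.32 and 8.13 at IFNa 2 h, a difference of 0.93 ± 0.30 (unadjusted p = 0.0128). Its relatives Oasl2 (0.76 ± 0.35) and Oas2 (0.65 ± 0.30) also had both 5 h arrays on top, as did Parp12 (0.59 ± 0.23), a PARP family member, and Dhx58 (0.49 ± 0.27), the RNA sensor LGP2. The size of these differences rests on the 2 h array used. Against array 1 alone they were 0.333 for Oas3, 0.231 for Oasl2, 0.086 for Oas2, 0.259 for Parp12 and 0.085 for Dhx58. Against array 2 alone they were 1.519 for Oas3, 1.293 for Oasl2, 1.214 for Oas2, 0.925 for Parp12 and 0.887 for Dhx58. Mx2 was at -1.512 against array 1 and -0.633 against array 2. Parp8, of the same family, read 9.43 and 9.36 at IFNa 5 h, 8.99 and 9.10 at IFNa 2 h, 9.28 with vehicle at 5 h and 9.30 with vehicle at 2 h. Its vehicle arrays thus lay between the IFNa arrays of the times. Trim25, the ubiquitin ligase of RIG-I, was -0.40 ± 0.16, and Cgas, the DNA sensor, -0.39 ± 0.16.

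**Figure D4:**
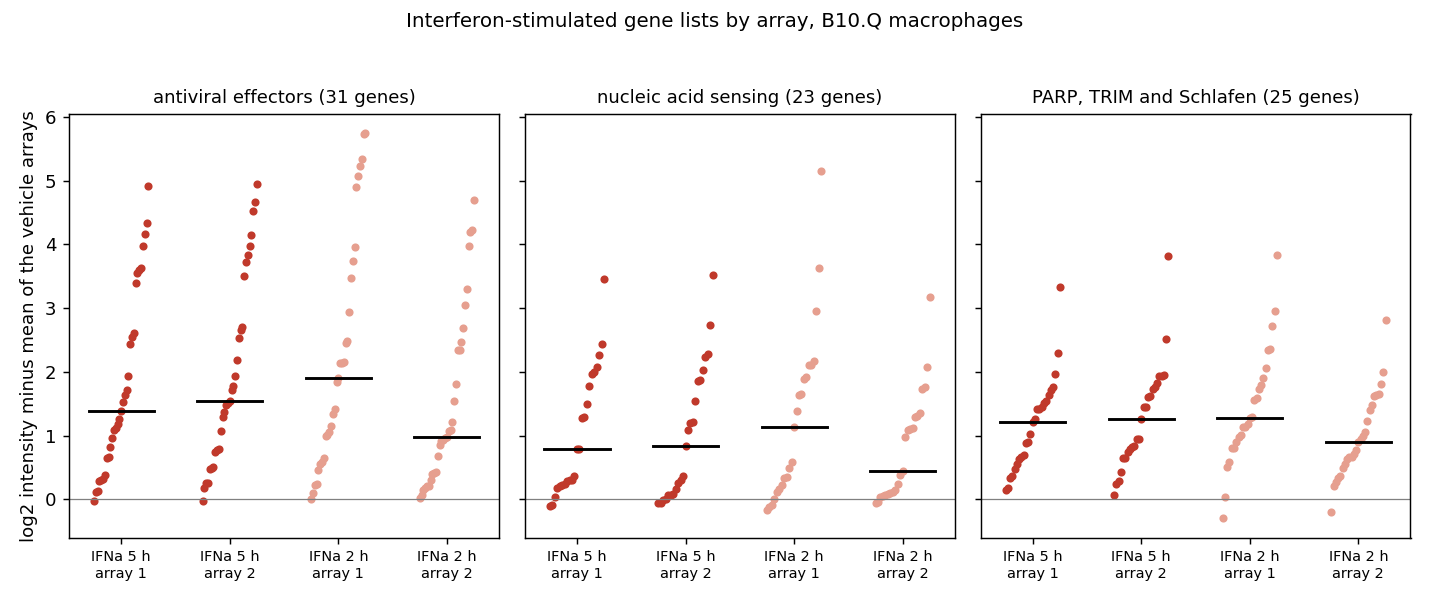
Level of each tested gene of 3 interferon-stimulated gene lists (dots, sorted by value) in each IFNa array of B10.Q macrophages (x axis), as log2 intensity minus the mean of both vehicle arrays (y axis). Black lines are medians; for the antiviral effectors they are 1.39 and 1.54 at 5 h, and 1.90 and 0.98 at 2 h.

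The promoters of a pair of antiviral genes, picked because they hold an ISRE, are shown with it in capitals. They are Rsad2 (GRCm38.p6, chr12:26456403-26456702, minus strand) and Oas3 (chr5:120777610-120777909, minus strand, ISRE on the opposite strand). Those of Oasl2 and Parp12, not printed, held no ISRE, as was the case for Pde7b.
Rsad2: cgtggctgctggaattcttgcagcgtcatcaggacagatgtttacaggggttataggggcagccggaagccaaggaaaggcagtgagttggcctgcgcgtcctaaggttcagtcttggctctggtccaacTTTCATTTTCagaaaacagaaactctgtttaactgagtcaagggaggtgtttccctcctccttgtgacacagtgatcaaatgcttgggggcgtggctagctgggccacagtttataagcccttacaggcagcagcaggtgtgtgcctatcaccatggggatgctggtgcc
Oas3: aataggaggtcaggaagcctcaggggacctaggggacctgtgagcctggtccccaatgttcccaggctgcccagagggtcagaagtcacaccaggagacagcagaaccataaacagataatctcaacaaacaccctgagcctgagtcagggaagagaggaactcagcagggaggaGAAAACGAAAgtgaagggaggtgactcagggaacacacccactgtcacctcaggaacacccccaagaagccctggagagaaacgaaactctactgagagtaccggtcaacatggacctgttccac
Of the 63 interferon-stimulated genes of the 3 lists with a promoter in the table, 27 held an ISRE, against 3.49% of all promoters. Of the genes called in the B10.Q fit, 19 of the 23 higher and 10 of the 16 lower had a promoter, and 0 of either held an ISRE. With so few promoters and a motif in 3.49% of all, nothing is read from that. Of the 19, 4 held a RORE core, 2 an E-prime box, 2 the cyclic AMP element and 1 each an E-box, a D-box and a GAS. These letters occurred in 16.04%, 4.77%, 1.88%, 7.24%, 2.34% and 8.47% of all promoters, in the same order. Of the 10, 1 held an E-box and none held another of these motifs.

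Chemokines and the interferon-inducible GTPases also showed the gap between the 2 h arrays. Ccl2, which draws monocytes, read 8.60 and 8.91 at IFNa 5 h, 10.67 and 9.03 at IFNa 2 h, 7.60 with vehicle at 5 h and 7.50 with vehicle at 2 h. Its difference was -1.10 ± 0.44 (unadjusted p = 0.032). Ccl7, a chemokine of the same receptor, was -1.26 ± 0.52. Against array 1 of IFNa 2 h alone Ccl2 was at -1.919 and Ccl7 at -2.278, and against array 2 alone at -0.282 and -0.233. Cxcl10, which draws activated T cells, read 7.67 and 7.50 at IFNa 5 h and 9.73 and 7.58 at IFNa 2 h. The difference of Cxcl10 was -1.07 ± 0.52; it was -2.143 and called (adjusted p = 0.0278) without array 2 of IFNa 2 h, and 0.00 without array 1. Iigp1, an immunity-related GTPase, read 6.75 and 7.73 at IFNa 5 h and 9.42 and 6.51 at IFNa 2 h. All 7 tested GBP and IRG genes had array 1 of IFNa 2 h above array 2, by a median of 1.10, against 30.8% of all genes. In 5 both 5 h arrays lay between the 2 h arrays, against 15.7% of all genes. In the chemokine and cytokine list 0 of 20 tested genes were called. By unadjusted p below 0.05 there were 0 higher and 2 lower, Ccl2 and Ccl7, against 2.64% and 0.807% of all genes.

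Of the interferon pathway itself, the receptor chains and Tyk2 differed little, and Irf1 and Stat4 were lower at 5 h without overlap of the arrays. Ifnar1, Ifnar2 and Tyk2 differed by -0.04, 0.04 and 0.02 between IFNa 5 h and IFNa 2 h, and Tyk2 by -0.061 after quantile normalization. Irf1, an early transcription factor, read 9.64 and 9.94 at IFNa 5 h and 10.72 and 10.22 at IFNa 2 h, a difference of -0.68 ± 0.32. Socs1, a feedback inhibitor, was -0.39 ± 0.21. Of 21 tested signalling genes 0 were higher and 1 lower by unadjusted p below 0.05, against 2.64% and 0.807% of all genes. The lower one was Stat4 (-0.53 ± 0.16). Of 13 feedback genes there were 0 in either direction, and no gene of either list was called.

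Among surface receptors, 2 of 11 tested Fc, sialic acid and CD300 receptor genes were higher by unadjusted p below 0.05, against 2.64% of all genes. Cd300lf, an inhibitory receptor for phospholipids, read 8.08 and 7.98 at IFNa 5 h, 7.63 and 7.18 at IFNa 2 h, 7.22 with vehicle at 5 h and 7.16 with vehicle at 2 h (0.63 ± 0.16). Siglec1, the macrophage sialoadhesin, read 9.43 and 9.60 at IFNa 5 h, 9.15 and 8.87 at IFNa 2 h, 7.96 with vehicle at 5 h and 7.66 with vehicle at 2 h (0.50 ± 0.17). All IFNa arrays of Siglec1 were above both vehicle arrays. For Cd300lf, array 2 of IFNa 2 h lay between the vehicle arrays, and the other IFNa arrays lay above both. The difference of the time differences, IFNa minus vehicle, was 0.57 ± 0.27 for Cd300lf and 0.21 ± 0.30 for Siglec1, and passed the threshold for neither.

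The remaining lists had 0 called genes. For the counts that follow, 2.64% of all genes were higher and 0.807% lower by unadjusted p below 0.05. At an unadjusted p under 0.05 the cholesterol and fatty acid list had 2 higher, Scd2 (0.46 ± 0.15) and Hmgcs1 (0.43 ± 0.18), and 1 lower of 16 tested, the lower being the efflux pump gene Abca1 (-0.39 ± 0.16). The immediate early list had 0 higher and 1 lower of 25, and the glucocorticoid list (13 genes), MHC class I (18), MHC class II (9), cell death (14), heat shock (17) and cell cycle (26) had 0 in either direction. Fkbp5, a glucocorticoid-induced chaperone, read 9.67 and 9.89 at IFNa 5 h, 9.45 and 8.73 at IFNa 2 h, 7.76 with vehicle at 5 h and 8.71 with vehicle at 2 h. The MHC class II genes H2-Ab1, H2-Aa and Cd74 were at -0.44 ± 0.23, -0.42 ± 0.24 and -0.36 ± 0.20, with vehicle at 0.31, 0.36 and 0.31.

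T cells of B10.Q mice give the nearest other comparison of the 2 times. Fitted over the 12 B10.Q arrays, 1 of 11161 genes was called higher in T cells (0.00896%) and 0 lower (0%), with 443 and 442 by unadjusted p below 0.05 (3.97% and 3.96%). The difference between the cell types was called for 0 genes (0%), with 603 higher (5.4%) and 236 lower (2.11%) by unadjusted p below 0.05. The 6 genes of smallest p were Pde7b (macrophages minus T cells 2.05 ± 0.26, adjusted p = 0.0629), Nr1d2 (1.25 ± 0.17, adjusted p = 0.0884), Nr1d1 (1.55 ± 0.25), Folr2, Arntl (-0.75 ± 0.14) and Igfbp4 (-1.17 ± 0.19). In T cells Nr1d1 lay between 8.02 and 8.38 and Dbp between 8.79 and 9.39 over all 6 arrays. The 6 clock genes plotted for both cell types differed by -0.02 to 0.19 between the times in T cells with IFNa, and the difference between cell types passed the threshold for none of them.

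The 79 interferon-stimulated genes had a median difference of -0.56 in T cells, beside -0.01 in macrophages. By unadjusted p below 0.05, 0 were higher and 46 lower in T cells, against 3.97% and 3.96% of 11161 genes. For the difference between the cell types 0 of the 79 were called. By unadjusted p below 0.05, 26 were higher and 1 lower, against 5.4% and 2.11% of 11161 genes. Oas3 read 8.21 and 8.36 at 5 h and 9.73 and 8.53 at 2 h in T cells with IFNa, the opposite order to macrophages. In T cells too array 1 of IFNa 2 h was above array 2 in 72 of the 79 genes, against 45.9% of 10416 genes tested in both cell types. The T-cell IFNa 2 h arrays carried macrophage transcripts: the 19 peritoneal macrophage markers averaged 6.86 in both 5 h arrays, against 8.14 and 7.19 at 2 h. The part of these transcripts in the T-cell differences was not tested.

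A further list was chosen in T cells alone, as the 28 genes called higher there at 2 h after IFNa, a choice made after the data were seen, since the list first laid down, of genes called at both times, held 1 gene, Rtp4. In macrophages 27 of the 28 were tested, and 0 were called between the times. Their median difference was -0.12, with 8 above and 19 below 0, against 0.06 for all genes. Against the vehicle array of the same time they were at a median of 1.97 at 5 h and 2.00 at 2 h. In all 27 genes array 1 of IFNa 2 h was above array 2, against 30.8% of all genes.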

How the data were processed

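RNA of sorted cells was amplified with the Ambion WT Expression Kit and hybridised to Affymetrix Mouse Gene 1.0 ST arrays, per the labels' protocols. The deposited values are linear probe set intensities that the authors normalized by RMA in Affymetrix Power Tools, per the submitters' processing notes, whose versions are not given in the sources used here, nor is which arrays were normalized together. From the deposited intensities log2 values were computed here. Of 24922 probe sets, 21425 had 1 gene symbol, 1399 several and 2098 none. The probe set of highest mean stood for each of 19752 genes.

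Genes above the array's own median in at least 2 arrays were tested with limma 3.58.1 (R 4.3.3; lmFit, eBayes, two-sided) over the 10 macrophage arrays in 6 groups, with Benjamini-Hochberg adjustment over 10531 genes, and for T cells over the 12 B10.Q arrays in 8 groups. Each lone vehicle array is assumed to vary like the replicated groups. The code was tested on simulated data. In each direction up to 15 genes were named, the called ones first and then those of smallest p whose arrays do not overlap. Up to 10 each way were named for collection time, 6 for each difference of differences, and up to 6 of largest difference per list. The members and lists were chosen with earlier results of these data known. The number of arrays limits the precision. The alternatives tried were other filters, normalizations, variance models, sets of arrays, a replicate block and leaving out single arrays. Promoters are RefSeq's (GRCm38.p6), and motifs were searched on both strands. Motif counts over gene lists and over all promoters use the first listed start site of each gene.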

Additional observations from a re-analysis of the deposited data

Results flagged for a closer look

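In 25 of 149 genes named by rule and measured in both cell types, every IFNa 5 h array lay on one side of every IFNa 2 h array in macrophages and on the opposite side in T cells. The same held for 7.52% of 10416 genes. Part of the rule chose genes without overlap in macrophages, so nothing is read from the count. The value after each gene is the time difference in macrophages minus that in T cells, on the log2 scale. The limma test of this difference over 12 arrays called 0 of them, with adjusted p from 0.21 to 0.669. Among genes of the 3 interferon-stimulated lists, all higher at 5 h in macrophages and lower in T cells, these were Oas3 (1.77), Oasl2 (2.03), Oas2 (1.69), Dhx58 (1.29), Parp12 (1.45), Sp100 (0.75), Parp8 (0.59) and Trim30a (0.87). Parp8 was listed by its family, and in macrophages its IFNa 2 h arrays lay below both vehicle arrays. Surface receptor genes of the same direction were Cd300lf (0.87), Siglec1 (0.66), Cd300lb (0.79), Cd33 (0.63) and Clec10a (0.80). Peritoneal macrophage markers averaged 6.86 in both T-cell IFNa 5 h arrays, against 8.14 and 7.19 in the T-cell IFNa 2 h arrays, and their part in these differences was not tested.

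Other genes higher at 5 h in macrophages and lower in T cells were Epha2 (0.82), Tex30 (0.77), Kcnn3 (0.71), Coq10b (0.46) and Mt2 (0.74). Genes of the opposite direction were Dpysl3 (-0.77), Arntl (-0.75), Lonrf3 (-0.88), Igfbp4 (-1.17), Dusp2 (-0.52), Abca1 (-0.68) and Hsp90aa1 (-0.33). Igfbp4, an IGF-binding protein, read 9.41 and 9.29 at IFNa 5 h, against 9.88 and 10.08 at IFNa 2 h, in macrophages, and 12.50 and 12.44 at IFNa 5 h, against 11.76 and 12.10 at IFNa 2 h, in T cells.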

How the results depend on the processing

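Pde7b was called between IFNa 5 h and IFNa 2 h under every alternative run. Against 1 gene called higher and 0 lower, no filter and a trended, robust variance each gave 3 higher, all 16 arrays 3 higher and 1 lower, the 4 IFNa arrays alone 24 and 16, and the 6 B10.Q macrophage arrays 23 and 16. Leaving out single arrays gave 1 to 19 higher and 0 to 13 lower, the highest both without KO IFNa array 1 (chosen after seeing the data), and 1 lower, Cxcl10, without IFNa 2 h array 2. For the difference of the time differences, no filter, the trended variance and the 6 arrays each called 1 gene higher, and leaving out arrays 0 to 1. For collection time the 6 arrays called 15 higher and 5 lower, and leaving out arrays 0 to 13 higher and 0 to 5 lower. For the cell types, no filter and subtracted medians each called 1 higher and 1 lower, the trended variance 1 lower, and leaving out arrays 0 to 1 lower. With the replicate block the IFNa counts stayed at 1 and 0 and the cell-type counts were 1 and 1. The 2 pairs share only a number (r = -0.046 between their deviations). Vehicle contrasts could not be run from the 4 IFNa arrays or with vehicle as 1 group. The causes were not tested.

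After quantile normalization Psmb9 was at 0 and Tyk2 at -0.061. With single arrays left out, the difference crossed 0 in these genes, none called over all 10 arrays: Nampt -0.195 to 0.417, Usp2 -0.098 to 0.315, Atf3 -0.536 to 0.016, Rsad2 -1.495 to 0.439, Ifi205 -1.659 to 0.312, Zbp1 -0.021 to 0.853, Slfn9 -1.179 to 0.154, Stat2 -0.647 to 0.245, Gbp5 -1.401 to 0.011, Gbp7 -0.829 to 0.116, Gbp9 -0.508 to 0.814, Gbp3 -0.398 to 0.107, Cxcl10 -2.143 to 0.001, H2-T24 -0.014 to 0.655, Tap1 -0.506 to 0.189, Psmb9 -0.115 to 0.279, H2-T10 -0.288 to 0.128, Calr -0.151 to 0.001, H2-Eb1 -0.415 to 0.02, Ctss -0.132 to 0.035, Daxx -0.635 to 0.051, Bak1 -0.017 to 0.394, Bcl2l11 -0.019 to 0.358, Siglece -0.394 to 0.037, Hspa1a -0.02 to 0.343, Ifnar1 -0.121 to 0.049 and Tyk2 -0.006 to 0.036. Arrays give no read depth, and 2 per group set the precision.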
